A study of Mus musculus with 9 samples.

Results

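The 10 genes described here are *Sod1*, *Bach1* and 8 genes of the antioxidant response, out of 43629 genes in a count table from mouse embryonic fibroblasts (MEFs). They were chosen by name. *Sod1* and *Bach1* lie in the duplicated region of Dp1Tyb mice, a model of Down syndrome, and *Nfe2l2*, *Hmox1*, *Nqo1*, *Gclm*, *Gclc*, *Txnrd1*, *Srxn1* and *Slc7a11* lie outside it. All 10 passed the filter on low counts.

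The MEFs came from 4 WT and 5 Dp1Tyb littermate embryos at E14.5, 1 culture per embryo. The labels give the strain of both groups as C57BL/6J.129P2, and the mice had been backcrossed to C57BL/6JNimr. Dp1Tyb embryos carried Dp(16Lipi-Zbtb21)1TybEmcf, an extra copy of the stretch of chromosome 16 from *Lipi* to *Zbtb21* (75540514 to 97962622 in GRCm38). The embryos were decapitated, eviscerated and dissociated, so the cultures started from mixed body tissue. Every culture was grown in serum with 2-mercaptoethanol, a thiol reductant, and no oxidant or other treatment was given. The depth per culture ran from 25571442 to 30009361 counts in the WT group and from 24804539 to 26782380 in the Dp1Tyb group.

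NRF2, the product of *Nfe2l2*, is the main activator of the antioxidant response. In unstressed cells KEAP1 marks it for degradation, and oxidants or electrophiles release it to pair with small MAF proteins on antioxidant response elements. BACH1 pairs with the same small MAF proteins, binds the same kind of element and represses it until haem releases BACH1 from the DNA. SOD1 is the copper and zinc enzyme that turns superoxide into hydrogen peroxide in the cytosol. NRF2 is controlled mostly as a protein, which RNA sequencing (RNAseq) does not measure.

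A core of that element, written TGACNNNGC, was searched on both strands in RefSeq promoter windows of GRCm38.p6, from 250 bases before to 50 bases after the start of a transcript. Windows were given for 8 of the 10 genes, and not for *Hmox1* and *Gclc*. The core was present for 5 of these 8 genes. It was present for 15 of 65 genes of the pathway lists described below and for 14.0% of all 27025 genes with a window. The 5 matches are shown because the element is what links the regulators to their targets, with the matching bases in capitals. Where the match is on the opposite strand of the gene it reads GCNNNGTCA.
Sod1: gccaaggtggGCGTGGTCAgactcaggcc
Nfe2l2: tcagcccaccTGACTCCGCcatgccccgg
Gclm: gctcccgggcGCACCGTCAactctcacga
Txnrd1: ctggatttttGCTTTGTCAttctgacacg
Srxn1: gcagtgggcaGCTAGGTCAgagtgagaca

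These are chr16:90220696-90220724 for *Sod1*, chr2:75704885-75704913 for *Nfe2l2*, chr3:122245413-122245441 for *Gclm*, chr10:82859104-82859132 for *Txnrd1* and chr2:152105542-152105570 for *Srxn1*. Each is printed 5′ to 3′ on the strand of its gene, which is the minus strand for *Nfe2l2* and the plus strand for the others. The *Srxn1* match lies just after the transcript start and the other 4 lie before it. *Txnrd1* has 3 promoter windows, and 1 of them holds the core. Windows of *Bach1*, *Nqo1* and *Slc7a11* did not hold it, which says only that these letters are not in that stretch. A match shows letters and not binding, which was not measured.

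The regulators come first. BACH1 is the repressor of the group, and *Bach1* (ENSMUSG00000025612) lies on chromosome 16 from 87698945 to 87733346. Its normalised counts, scaled by the TMM method of edgeR, were 2565, 1987, 2238 and 3010 in WT replicates 1 to 4. They were 3615, 2643, 4164, 4573 and 4343 in Dp1Tyb replicates 1 to 5. Thus 4 of 5 Dp1Tyb cultures were above every WT culture, and Dp1Tyb replicate 2 was inside the WT range. *Bach1* was 1.58-fold higher in Dp1Tyb, with a 95% interval of 1.21 to 2.07 and a log2 fold change of 0.66 ± 0.174 (SE). In edgeR's quasi-likelihood test the Benjamini-Hochberg adjusted *p* was 0.648, which did not pass, and the unadjusted *p* was 0.00374. An exact permutation test on *Bach1* alone, two-sided, gave *p* = 0.0238. The labels of the cultures begin with MEF1 or MEF2. The cultures were split into 2 sets by this prefix, whose meaning the labels do not state. Within the larger set (MEF2), 3 WT and 4 Dp1Tyb, the difference in log2 CPM was 0.70 (exact permutation *p* = 0.0857). In the other set, 1 culture of each genotype, it was 0.49.

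*Nfe2l2* (ENSMUSG00000015839, chromosome 2, 75675513 to 75704641) encodes NRF2. Its normalised counts were 2507, 2865, 2972 and 3038 in WT and 3012, 3687, 3088, 2887 and 3300 in Dp1Tyb. The ranges overlapped and the log2 fold change was 0.17, with an interval of -0.03 to 0.37 (edgeR adjusted *p* = 1.0, exact permutation *p* = 0.111). Levels of the repressor and activator transcripts can be set side by side per exon length, as RPKM. The *Bach1* to *Nfe2l2* ratio in RPKM was 0.629, 0.426, 0.463 and 0.609 in WT and 0.737, 0.44, 0.828, 0.973 and 0.809 in Dp1Tyb. It was therefore above the WT range in 4 of 5 Dp1Tyb cultures, and replicate 2 was again the exception.

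SOD1 is the scavenging enzyme of the group that is carried in an extra copy. *Sod1* (ENSMUSG00000022982, chromosome 16, 90220754 to 90226329) had normalised counts of 2791, 3532, 3335 and 3380 in WT. In Dp1Tyb they were 4674, 5667, 4620, 4244 and 4613, and the lowest of these exceeded the highest WT value. Of the 10 genes, only *Sod1* had groups that did not overlap, against 1.36% of all 14567 genes tested. Among the 89 tested genes of the duplicated region, that share was 51.7%.

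*Sod1* was 1.46-fold higher in Dp1Tyb (interval 1.25 to 1.71), a log2 fold change of 0.55 ± 0.102 (SE). The adjusted *p* of edgeR's quasi-likelihood test was 0.154 and the unadjusted *p* was 0.000359. DESeq2 on the same counts gave a log2 fold change of 0.56 and called *Sod1*, with an adjusted *p* of 0.000929. The exact permutation *p* of 0.00794 is the smallest that 4 against 5 cultures allow. In the larger set of cultures the difference was 0.48 in log2 CPM (exact *p* = 0.0286, the smallest possible there) and in the smaller set it was 0.74.

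Both duplicated members moved about as far as their neighbours in the region. The 89 tested genes there had a median fold change of 1.5, the ratio of 3 copies to 2. Of these 89 genes, 52 had a larger log2 fold change than *Sod1* and 26 a larger one than *Bach1*. *Sod1* overlaps *Scaf4* on the opposite strand, but their annotated exons do not overlap.

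The mitochondrial counterpart of SOD1, SOD2, is encoded outside the duplication. *Sod2* had normalised counts of 973 ± 80.8 (SD, n = 4) in WT and 981 ± 92.1 (n = 5) in Dp1Tyb, with a log2 fold change of 0.01 and an interval of -0.18 to 0.21. The *Sod1* to *Sod2* ratio in RPKM was 8.1 to 8.78 in WT and 11.4 to 13.0 in Dp1Tyb. For these 2 enzymes the transcript balance was thus shifted in all 5 Dp1Tyb cultures. *Ccs*, which encodes the copper chaperone of SOD1, had a log2 fold change of 0.01, and *Sod3*, the extracellular enzyme, one of -0.29 (edgeR adjusted *p* = 1.0 for both). *Sod3* turned to 0.08 without WT replicate 2. The 2 sets of cultures also went opposite ways for *Sod3*. The difference in log2 CPM was -0.63 in the larger set and 1.34 in the smaller, which has 1 culture of each genotype. The direction of *Sod3* thus depended on which cultures were included.

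**Figure D1:**
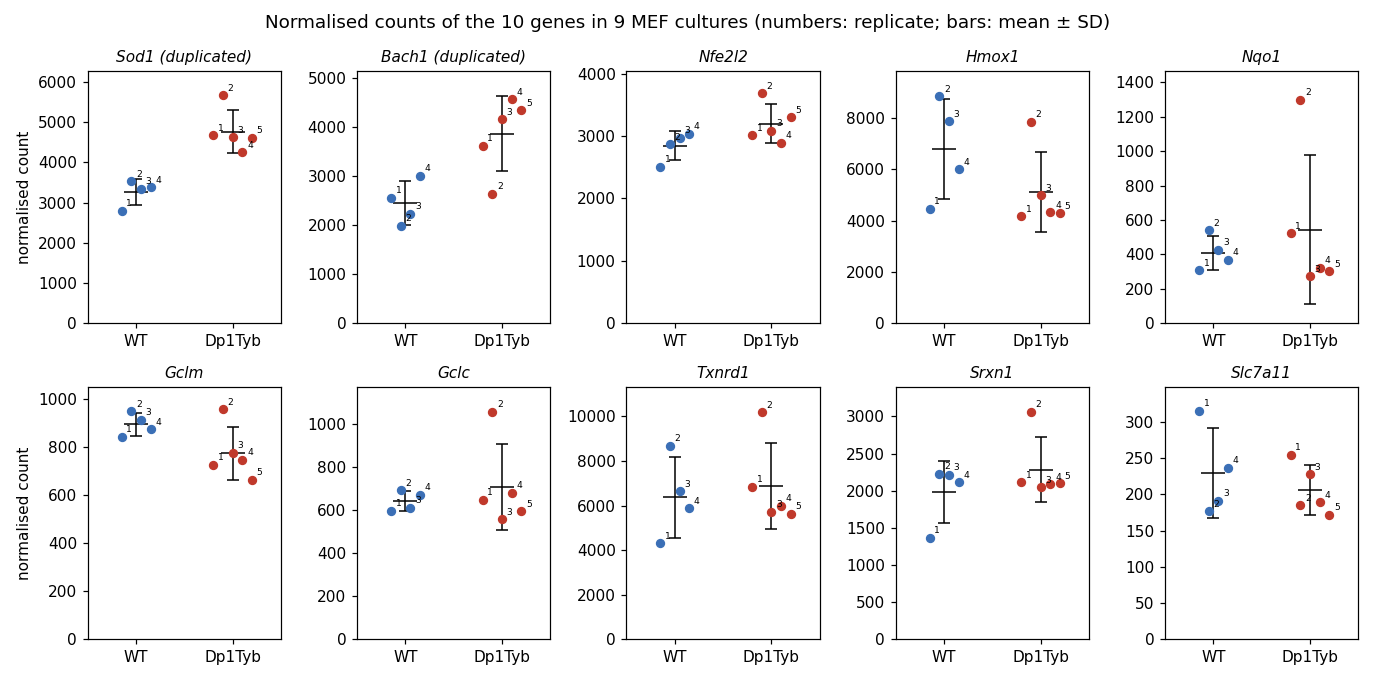
Normalised counts (vertical axes, each from 0) of the 10 genes in 4 WT (blue) and 5 Dp1Tyb (red) MEF cultures, with points numbered by replicate and bars for the mean ± SD of each genotype. *Sod1* in Dp1Tyb lies between 4244 and 5667, above all WT cultures, and Dp1Tyb replicate 2 is the highest Dp1Tyb point for 8 of the 10 genes.

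The 7 target genes outside the duplication showed no genotype difference that passed the test. No member was called by edgeR, against 0.165% of all tested genes (24 of 14567) and 24.7% of the 89 tested genes of the duplicated region, where *Sod1* and *Bach1* lie. At an unadjusted edgeR *p* below 0.05 there were 2 of 10 members, *Bach1* and *Sod1*. This compares with 3.13% of all tested genes and with 60 of the 89 tested genes of the duplicated region. DESeq2 called 1 member, *Sod1*, against 0.418% of all genes it gave an adjusted *p*, and 39 of its 68 called genes lay in the duplicated region. Of the 7 targets, 4 had a log2 fold change above 0 and 3 below, with a median of 0.11, while the median of all tested genes was 0.0027. The lower ends of the 7 intervals were at 0.518-fold or above.

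*Hmox1* (ENSMUSG00000005413, chromosome 8, 75093621 to 75100589) encodes haem oxygenase 1, which breaks down haem and is the best known target of BACH1. Its normalised counts were 4452, 8851, 7876 and 5998 in WT and 4168, 7859, 4990, 4322 and 4279 in Dp1Tyb. The Dp1Tyb cultures other than replicate 2 were between 4168 and 4990, near the lowest WT culture, and Dp1Tyb replicate 2 was about as high as WT replicate 3. The fold change was 0.754 with an interval of 0.518 to 1.1 (log2 fold change -0.41, edgeR adjusted *p* = 1.0, exact permutation *p* = 0.151). With 1 culture left out, the log2 fold change ran from -0.61 (without Dp1Tyb replicate 2, edgeR adjusted *p* = 0.842) to -0.25 (without WT replicate 2, edgeR adjusted *p* = 0.944).

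*Hmox1* is also made by macrophages, and 8 macrophage markers were all detected here. Their summed normalised counts were 1531 to 5639 in WT and 383 to 7999 in Dp1Tyb. Within each genotype, the culture with the highest *Hmox1* count, replicate 2 in both, had the lowest macrophage sum. Dp1Tyb replicate 1 had a sum nearly as low, 555 against 383, and the lowest *Hmox1* count. The part of macrophages in the *Hmox1* values was not tested.

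The next pair forms glutamate-cysteine ligase, the first and limiting step of glutathione synthesis. *Gclm* (ENSMUSG00000028124, chromosome 3, 122245557 to 122270732) encodes the modifier subunit, and its normalised counts were 841, 947, 913 and 872 in WT and 726, 956, 774, 747 and 664 in Dp1Tyb. Dp1Tyb replicate 2 was above all WT cultures, and the other 4 Dp1Tyb cultures were below them. The log2 fold change was -0.21 (interval -0.44 to 0.02, edgeR adjusted *p* = 1.0, exact permutation *p* = 0.0873), and without Dp1Tyb replicate 2 it was -0.30 with an edgeR adjusted *p* of 0.517. Exons of *Gclm* share bases with *Gm6061*, a pseudogene on the same strand with a mean count of 17.3.

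*Gclc* (ENSMUSG00000032350, chromosome 9, 77754535 to 77794485) encodes the catalytic subunit. Its normalised counts were 597, 694, 612 and 672 in WT and 648, 1059, 559, 682 and 595 in Dp1Tyb. Apart from the 1059 of Dp1Tyb replicate 2, both genotypes lay between 559 and 694. The log2 fold change was 0.14 (interval -0.26 to 0.53, edgeR adjusted *p* = 1.0) and turned to -0.05 without that culture.

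*Slc7a11* (ENSMUSG00000027737, chromosome 3, 49892526 to 50443614) encodes the cystine transporter that feeds glutathione synthesis. It was the member with the fewest counts per length. Its normalised counts were 315, 177, 191 and 237 in WT and 255, 185, 228, 189 and 172 in Dp1Tyb, with overlapping ranges. The log2 fold change was -0.16 (interval -0.59 to 0.27, edgeR adjusted *p* = 1.0), and without WT replicate 1, the highest culture, it was 0.03. Unlike the other targets, *Slc7a11* was below its genotype mean in both replicate 2 cultures.

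Thioredoxin reductase 1 and sulfiredoxin keep the thioredoxin and peroxiredoxin cycle reduced. *Txnrd1* (ENSMUSG00000020250, chromosome 10, 82833951 to 82897712) had normalised counts of 4305, 8672, 6638 and 5878 in WT and 6834, 10181, 5729, 5983 and 5640 in Dp1Tyb. *Srxn1* (ENSMUSG00000032802, chromosome 2, 152105516 to 152111376) had 1370, 2231, 2216 and 2111 in WT and 2114, 3059, 2046, 2087 and 2100 in Dp1Tyb. For both genes, WT replicate 1 was the lowest and Dp1Tyb replicate 2 the highest of all 9 cultures. The log2 fold changes were 0.11 (interval -0.41 to 0.62) for *Txnrd1* and 0.20 (interval -0.18 to 0.59) for *Srxn1*, with an edgeR adjusted *p* of 1.0 for each. Both values rested on those 2 cultures. *Txnrd1* turned to -0.04 without WT replicate 1 and to -0.08 without Dp1Tyb replicate 2, and *Srxn1* went to 0.06 and 0.07.

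*Nqo1* (ENSMUSG00000003849, chromosome 8, 107388225 to 107403206) encodes a quinone reductase and is a common readout of NRF2 activity. Its normalised counts were 307, 540, 425 and 369 in WT and 522, 1299, 272, 323 and 301 in Dp1Tyb. Dp1Tyb cultures thus held both the highest and the lowest values, and *Nqo1* had the widest interval of the 10 genes. The log2 fold change was 0.41 (interval -0.62 to 1.44, edgeR adjusted *p* = 1.0, exact permutation *p* = 0.841). Dp1Tyb replicate 2 decided its direction, since without it the log2 fold change was -0.21.

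**Figure D2:**
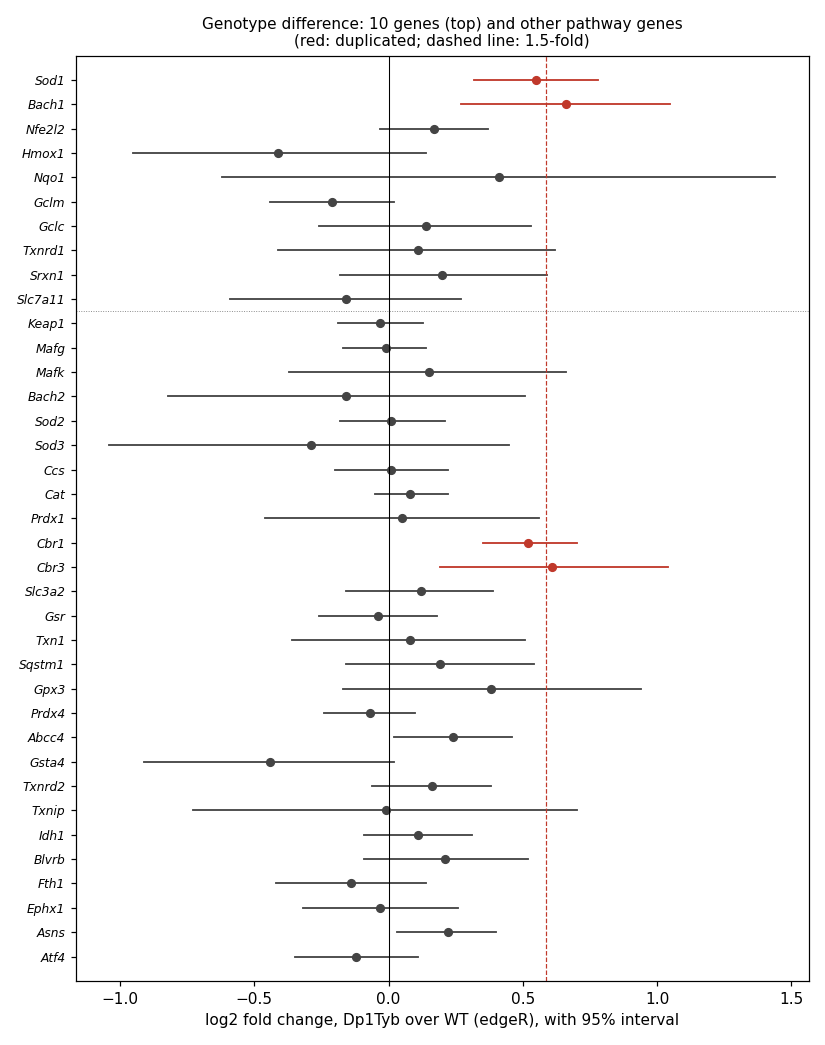
Log2 fold change of Dp1Tyb over WT from edgeR (horizontal axis) with its 95% interval for the 10 genes (top) and for other named genes of the pathway lists, with duplicated genes in red and a dashed line at 1.5-fold. *Sod1* (0.55) and *Bach1* (0.66) lie near the dashed line with intervals above 0, and the intervals of the other 8 members include 0.

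Levels per exon length ranked the members in WT as *Hmox1* (148 ± 40 RPKM, SD, n = 4), *Txnrd1* (34.4 ± 9.03), *Sod1* (31.5 ± 2.27), *Nfe2l2* (28.8 ± 1.76) and *Srxn1* (26.9 ± 5.02). Then followed *Bach1* (15.3 ± 2.82), *Nqo1* (10.1 ± 2.22), *Gclc* (6.57 ± 0.319), *Gclm* (5.46 ± 0.188) and *Slc7a11* (0.639 ± 0.192). *Txnrd1*, *Sod1*, *Nfe2l2* and *Srxn1* lay within the SD of *Txnrd1* of each other. In Dp1Tyb, *Hmox1* was again first (109 ± 31.3 RPKM, n = 5). *Sod1* (44.7 ± 4.67) then stood before *Txnrd1* (36.1 ± 9.55), by less than the SD of *Txnrd1*. The other 7 members kept their WT order. RPKM used all annotated exons of a gene, 13922 bases for *Slc7a11*, and is too low where the transcripts present are shorter.

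The pathway around the members was described with 74 other genes in 8 lists, of which 73 were tested. *Aldh3a1* was not, because of its low counts. edgeR called 1 of the 73, *Cbr1*, and none lower, where it called 0.165% of all tested genes. At an unadjusted *p* below 0.05 there were 4 higher and 0 lower, where 3.13% of all tested genes had such a *p*. The median log2 fold change was 0.06, with 46 genes above 0 and 27 below, and over all tested genes 7422 were above 0 and 7145 below. *Cbr1* and *Cbr3* encode carbonyl reductases and lie in the duplicated region. Of the 71 tested genes outside that region none was called by edgeR and 2 had an unadjusted *p* below 0.05, which is near the 3.13% of all tested genes.

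*Cbr1* (ENSMUSG00000051483, chromosome 16, 93605853 to 93610505) had normalised counts of 692, 790, 762 and 789 in WT and 1019, 1124, 1192, 988 and 1126 in Dp1Tyb. It rose with a log2 fold change of 0.52 (interval 0.35 to 0.70, edgeR adjusted *p* = 0.0395), and leaving out any culture ended this edgeR call. DESeq2 on the same counts also called *Cbr1* (adjusted *p* = 7.75e-06). *Cbr3* had 344 ± 95 (SD, n = 4) in WT and 526 ± 70.7 (n = 5) in Dp1Tyb, a log2 fold change of 0.61 with an edgeR adjusted *p* of 0.982. All 5 Dp1Tyb cultures were above the 4 WT cultures for both reductases, as for 51.7% of the tested genes of the region. The 2 genes outside the region with an unadjusted *p* below 0.05 were *Abcc4*, an exporter of conjugates, and *Asns*, asparagine synthetase and a target of ATF4. *Abcc4* had 306 ± 20.4 in WT and 361 ± 36.8 in Dp1Tyb, and *Asns* 3285 ± 377 and 3818 ± 137 (edgeR adjusted *p* = 1.0 for both).

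The partners and the sensor of the regulators showed no difference that passed the test. The 9 tested regulators had log2 fold changes between -0.16 and 0.19, among them *Keap1* (-0.03), the small MAF gene *Mafg* (-0.01) and *Bach2* (-0.16), a relative of *Bach1*. Single cultures decided these directions, with *Keap1* at 0.01 without Dp1Tyb replicate 2, *Mafg* at 0.03 without WT replicate 3 and *Bach2* at 0.18 without WT replicate 1. None of the 9 was called by edgeR or had an unadjusted *p* below 0.05. The interval was narrow for *Keap1* (-0.19 to 0.13). It was wide for *Bach2* (-0.82 to 0.51) and for the small MAF gene *Maff* (-0.71 to 0.93), where larger differences are not excluded.

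None of the enzyme lists other than that of *Cbr1* and *Cbr3* held a called gene. The median log2 fold change was 0.0087 for enzymes of superoxide and peroxide, 0.08 for glutathione, 0.10 for thioredoxin, 0.07 for NADPH supply and -0.04 for haem and iron. *Cat*, which encodes catalase, had means of 2225 in WT and 2360 in Dp1Tyb, and the peroxiredoxin gene *Prdx1* had 12676 and 13122 (edgeR adjusted *p* = 1.0 for both). The log2 fold change of *Prdx1* was 0.05, and -0.16 without Dp1Tyb replicate 2. The ATF4 list, whose genes answer amino acid shortage and which is shared with *Slc7a11*, had a median of 0.10, and *Atf4* itself had -0.12.

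The targets also varied among cultures of the same genotype. Each culture's log2 CPM was set against the mean of its genotype. Dp1Tyb replicate 2 stood 1.53 above its genotype mean for *Nqo1*, 0.66 for *Hmox1*, 0.62 for *Gclc*, 0.60 for *Txnrd1*, 0.44 for *Srxn1* and 0.32 for *Gclm*. For *Bach1* it stood 0.52 below. WT replicate 2 was likewise the highest WT culture for the same 6 targets, at 0.49 above for *Txnrd1* and 0.43 for *Hmox1* and *Nqo1*, and the lowest for *Bach1*, at -0.28.

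Both replicate 2 cultures were thus the highest of their genotype for 6 of 7 targets. Over all 14567 genes this held for 21.6%, and over the 73 pathway genes for 41.1%. By list, it held for 5 of 6 genes of NADPH supply, 3 of 4 of thioredoxin and 9 of 15 of superoxide and peroxide, but for 1 of 7 of haem and iron and 0 of 10 of ATF4. These cultures were singled out after their values were seen, and the counts are a description. Both replicate 1 cultures form the smaller set of cultures, and the labels name nothing that the replicate 2 cultures share beyond the larger set.

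**Figure D3:**
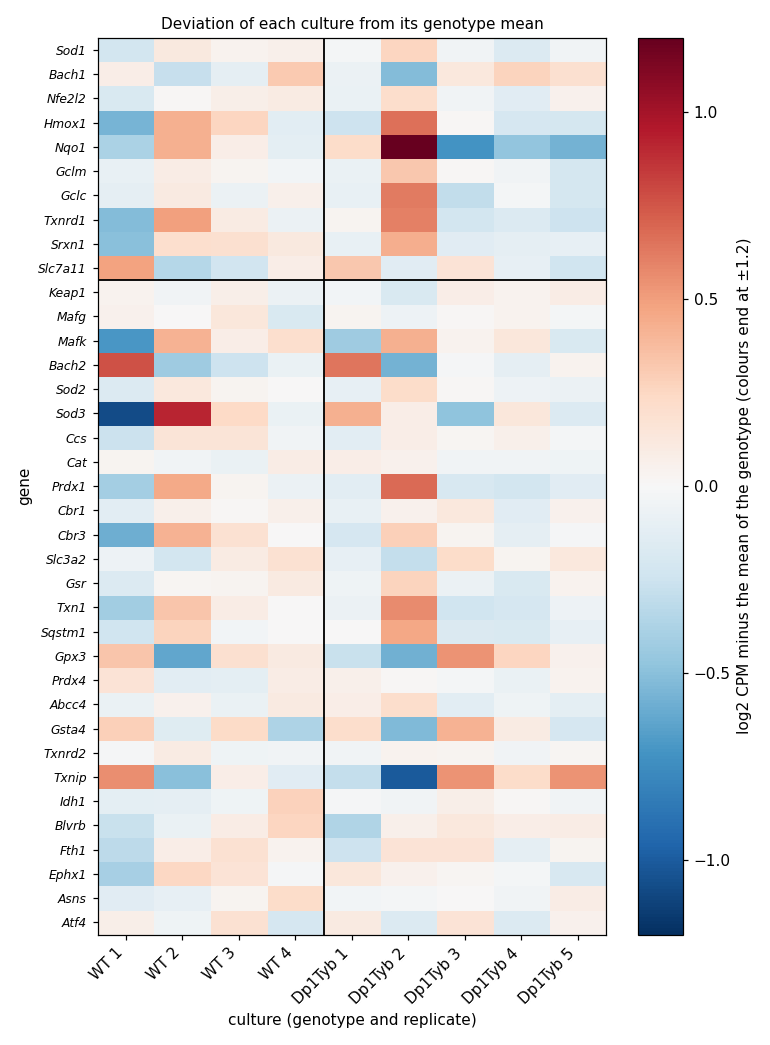
Deviation of each culture's log2 CPM from the mean of its genotype (colour, red above and blue below, ending at ±1.2) for the 10 genes (above the line) and other named pathway genes, with WT cultures on the left and Dp1Tyb cultures on the right. Both replicate 2 columns are red for *Hmox1*, *Nqo1*, *Gclm*, *Gclc*, *Txnrd1* and *Srxn1* and blue for *Bach1*, and the *Nqo1* value of Dp1Tyb replicate 2 (1.53) is past the end of the scale.

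Dp1Tyb replicate 2 also stood apart over the whole table, with a median absolute deviation of 0.239 on the log2 scale against 0.0943 to 0.129 in the other Dp1Tyb cultures. WT replicate 1 (0.196) and WT replicate 2 (0.158) were likewise above WT replicates 3 and 4 (0.0998 and 0.1). Among fibroblast markers, Dp1Tyb replicate 2 had the lowest counts of all cultures for *Col1a1*, *Col1a2*, *Col3a1*, *Pdgfra*, *Pdgfrb* and *Dcn*. For the collagen gene *Col3a1* the count was 58010, against 125059 to 283229 elsewhere, and for *Dcn* 2110, against 5925 to 16876. WT replicate 2 was the lowest WT culture for the same genes. Dp1Tyb replicate 2 was the highest for *Vim* (130012, against 63246 to 126837). Its counts of *Thy1* (23787) and *Fn1* (482749) were within the range of the others. All 9 fibroblast markers were detected, with sums of 1239770 to 1528012 in WT and 1087730 to 1801403 in Dp1Tyb, lowest in replicate 2 of each genotype. Of 5 Schwann cell markers 4 were tested, and the sum of the 5 was 777 to 1589 in WT and 230 to 760 in Dp1Tyb. Of the 5 muscle markers, 1 was tested, and the sum of the 5 was 4.07 to 8.29 in WT and 7.72 to 50.9 in Dp1Tyb. Sums of endothelial and epithelial markers overlapped between the genotypes, and of the erythroid markers *Hba-a1* and *Hbb-bt* were at 0. The part of these markers in the differences of the members was not tested. In such bulk cultures, fewer cells of a type and less RNA per cell cannot be told apart.

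Across the 9 cultures, the 8 members outside the duplication gave 28 pairs, of which 21 had a Pearson *r* above 0. By an exact permutation test with Benjamini-Hochberg adjustment over the pairs, 4 passed. These were *Txnrd1* with *Srxn1* (*r* = 0.894, adjusted *p* = 0.00903), *Nqo1* with *Txnrd1* (0.878, 0.00903), *Hmox1* with *Gclm* (0.888, 0.0246) and *Nqo1* with *Gclc* (0.922, 0.0349). Raw *p* values of these 4 pairs were 0.000645, 0.000502, 0.00263 and 0.00499 in the same exact permutation test. Spearman's rho was 0.9, 0.917, 0.917 and 0.85, with adjusted exact permutation *p* of 0.0142, 0.0142, 0.0142 and 0.034. No such count was made for pairs of other genes, so the correlations are not shown to be particular to the members.

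The pairs differed in how far they rested on single cultures. Without both replicate 2 cultures, *r* was 0.911 for *Txnrd1* with *Srxn1*, 0.806 for *Hmox1* with *Gclm*, 0.663 for *Nqo1* with *Txnrd1* and 0.497 for *Nqo1* with *Gclc*. These were also the 2 cultures farthest from the median for *Txnrd1* and *Nqo1*. For *Hmox1* the farthest were WT replicates 2 and 3, and without them *r* with *Gclm* was 0.853. In both of these cases none of the 28 pairs passed the adjustment. Within the larger set of cultures, also 7, *r* was between 0.87 and 0.946 for the 4 pairs, and 4 pairs passed an exact permutation test after adjustment. There *Nqo1* with *Gclc* did not pass (adjusted exact permutation *p* = 0.0633) and *Nqo1* with *Srxn1* did (*r* = 0.972, adjusted exact permutation *p* = 0.0111). Over all 9 cultures this last pair had *r* = 0.747 (adjusted exact permutation *p* = 0.156) and rho = 0.9 (0.0142). By Spearman's rho no pair passed within the larger set, where the lowest adjusted exact permutation *p* was 0.0689. *Slc7a11* had an *r* below 0 with each of the other 7 genes, the lowest being -0.719 with *Srxn1*, and none passed.

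*Bach1*, *Nfe2l2* and *Sod1* were each compared with the 7 targets in deviations from the genotype mean, which removes the difference between genotypes. These 21 relations were chosen after the data were seen, and *p* values came from 2880 permutations within genotypes. None passed the adjustment, with a lowest adjusted *p* of 0.0656. The signs of *r* were not counted over other genes, so the relations are not shown to be particular to the targets. *Bach1* had an *r* below 0 with 6 of 7 targets, from -0.628 for *Srxn1* to -0.889 for *Nqo1*, and of 0.299 with *Slc7a11*. For *Nqo1* the permutation *p* was 0.00833 (adjusted 0.0656) and rho was -0.75 (permutation *p* = 0.0167, adjusted 0.0831). Both replicate 2 cultures were the 2 farthest for *Bach1*. Without them, and with the genotype means taken anew, *r* was -0.596 for *Nqo1*, -0.38 for *Txnrd1*, -0.275 for *Hmox1* and 0.314 for *Gclc*. The relations of *Bach1* therefore rested on those cultures.

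*Sod1* had an *r* above 0 with the same 6 targets, and none of these relations passed. Its *r* was 0.94 with *Srxn1* (permutation *p* = 0.0132, adjusted 0.0656; rho 0.933, permutation *p* = 0.0132, adjusted 0.0831) and 0.909 with *Txnrd1*. Without its 2 farthest cultures, WT replicate 1 and Dp1Tyb replicate 2, and with the genotype means of all cultures kept, these were 0.823 and 0.742. Both replicate 2 cultures were also left out, with the means taken anew. There *r* of *Sod1* was 0.88 with *Srxn1*, 0.795 with *Txnrd1*, 0.732 with *Hmox1*, 0.431 with *Nqo1*, 0.225 with *Gclm* and 0.0609 with *Gclc*. *Nfe2l2* had its highest *r* with *Srxn1* too, 0.875 (permutation *p* = 0.0378, adjusted 0.0756). It was 0.645 without WT replicate 1 and Dp1Tyb replicate 2, with the means kept.

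**Figure D4:**
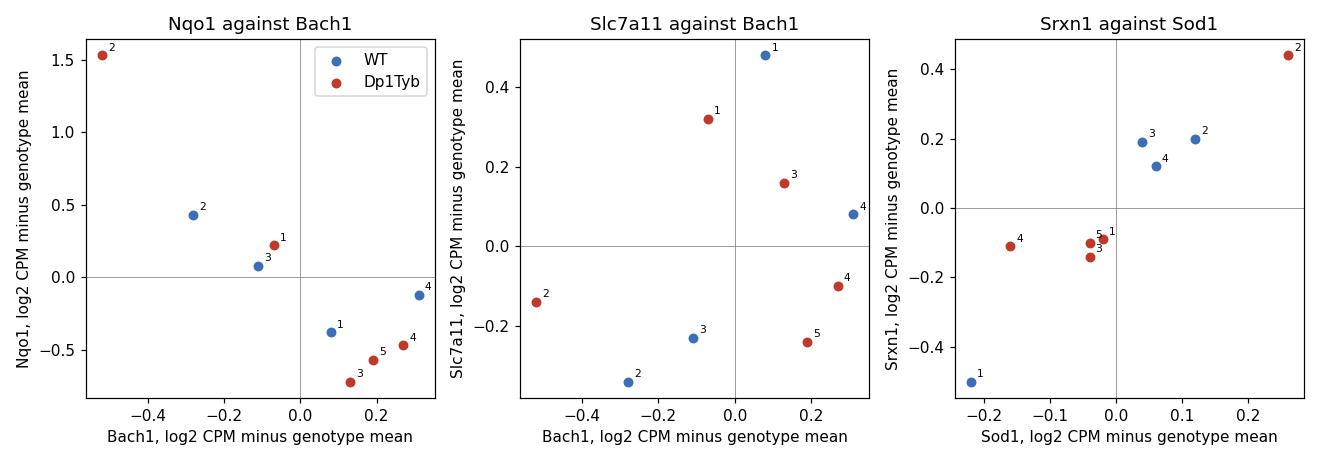
Deviations from the genotype mean in log2 CPM for *Nqo1* against *Bach1* (left), *Slc7a11* against *Bach1* (middle) and *Srxn1* against *Sod1* (right), with 1 point per culture, numbered by replicate, in blue for WT and red for Dp1Tyb. In the left panel Dp1Tyb replicate 2 lies far from the others at -0.52 for *Bach1* and 1.53 for *Nqo1*, and in the right panel the 9 points lie along a line with *r* = 0.94.

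The genes most like each member in these deviations were found among all tested genes, as a description over 9 cultures without a test. Differences between whole cultures enter all of these values. *Hmox1* was closest to *Ftl1*, the ferritin light chain gene (*r* = 0.994), *Txnrd1* to *S100a6* (0.993), *Nfe2l2* to the ribosomal protein gene *Rpsa* (0.991) and *Srxn1* to *Slc35b2* (0.988). *Nqo1* was closest to *Gart*, a duplicated gene of purine synthesis (0.987), *Bach1* to *Nr2c1* (0.986) and *Gclm* to *Trim16* (0.983). *Sod1* was closest to *Snrnp35*, *Pfdn1* and the cytochrome c gene *Cycs* (0.979 each), *Gclc* to *Eed* (0.976) and *Slc7a11* to *Patl1* (0.974). No member was among the 3 nearest genes of another.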

How the data were processed

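RNAseq counts of 9 MEF cultures, 4 WT and 5 Dp1Tyb, were analysed. The authors trimmed paired-end reads with Trim Galore, mapped them to GRCm38 with TopHat2 2.0.12, counted reads per gene with HTSeq and deposited the counts without normalisation. The strand option of the counting is not given in the sources used here. The authors' DESeq2 table and normalised values were not used.

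Of 43629 listed genes, 42462 were matched to GENCODE M21 and 24467 had a count. edgeR 4.0.16 in R 4.3.3 tested the 14567 genes kept by its filter on low counts, with TMM scaling, the quasi-likelihood test, no covariate, Benjamini-Hochberg adjustment and a threshold of 0.05. Log2 CPM used a prior count of 2. Permutation tests were exact and two-sided. RPKM was computed from counts, total counts and summed exon length. Intervals are 95%. Python 3.11.15 and scipy 1.17.1 were used.

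The members and lists were chosen with earlier results of these data known. Named pathway genes were a fixed set of main regulators and enzymes, plus any gene called by edgeR. In each list, the genes with the lowest unadjusted edgeR *p* among those higher and among those lower in Dp1Tyb were added. Alternatives were DESeq2 1.42.0, its size factors in edgeR, TMM without the duplicated region, the culture set as a covariate, other filters on low counts, the larger set alone, a replicate block and each culture left out. Culture sets were inferred from the prefix MEF1 or MEF2 of the labels, which do not say what it stands for. The *p* values of the genotype tests set the difference between genotypes against the spread between cultures of different embryos.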

Additional observations from a re-analysis of the deposited data

Results flagged for a closer look

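Among 74 groups of 4 or 5 cultures, one group per gene and genotype, a culture was set apart where its gap to the nearest other culture was a large part of the group's range. Chance alone gives about 1 in 20 groups. Of the 11 such values, 8 were high values of Dp1Tyb replicate 2. For members, these normalised counts were 7859 for *Hmox1*, 1299 for *Nqo1*, 1059 for *Gclc*, 10181 for *Txnrd1* and 3059 for *Srxn1*. For pathway genes they were 20331 for *Prdx1*, 6322 for *Txn1*, the thioredoxin gene, and 19564 for *Sqstm1*, an adaptor that binds KEAP1. The others were *Srxn1* in WT replicate 1 (1370, low), *Idh1* in WT replicate 4 (5108, high) and *Blvrb* in Dp1Tyb replicate 1 (352, low). The 11 values are not independent, since 8 come from the same culture. Over all tested genes, Dp1Tyb replicate 2 was the highest Dp1Tyb culture for 35.1%. Such gaps were not counted over all tested genes, so these values are not shown to be particular to the antioxidant genes.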

How the results depend on the processing

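*Sod1* and *Bach1* were higher in Dp1Tyb under all alternatives run. Leaving out each culture gave log2 fold changes of 0.48 to 0.59 for *Sod1* (edgeR adjusted *p* 0.117 to 0.562) and 0.57 to 0.78 for *Bach1* (0.1 to 1.0), and a median of the 7 targets between -0.13 and 0.18. DESeq2 in place of edgeR called 1 member, *Sod1* (0.56), where edgeR called 0 of 10 with or without any culture. Over the whole table, edgeR's 24 genes became 68 with DESeq2, 1 in the larger set of cultures, 10 without both replicate 2 cultures (chosen after the data were seen) and 2 to 26 with 1 culture left out, lowest without WT replicate 2 or 3. *Cbr1*, the 1 pathway gene called, was lost (0 called) without a filter, in the larger set, without both replicate 2 cultures and with any culture left out. The 4 correlated pairs became 0 without the 2 farthest cultures and 0 without both replicate 2 cultures.

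Fold changes turned direction for *Nqo1* (-0.21) and *Gclc* (-0.05) without Dp1Tyb replicate 2, and to -0.05 and -0.01 without both replicate 2 cultures. *Txnrd1* turned to -0.04 in the larger set, -0.04 without WT replicate 1 and -0.08 without Dp1Tyb replicate 2, and *Slc7a11* to 0.03 without WT replicate 1. With 1 culture left out, the lowest and highest values were -0.21 and 0.58 for *Nqo1*, -0.05 and 0.21 for *Gclc*, -0.08 and 0.29 for *Txnrd1* and -0.27 and 0.03 for *Slc7a11*. These fits hold fewer cultures, and the cause was not tested otherwise.

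With a replicate block over replicates 1 to 4, 0 genes and 0 pathway genes were called, and *Sod1* had a log2 fold change of 0.56 (edgeR adjusted *p* = 0.207) and *Bach1* 0.60 (0.178). *Hmox1* had -0.35 with an unadjusted *p* of 0.0195 and an edgeR adjusted *p* of 0.841. Deviations of same-numbered cultures correlated at 0.259, 0.741, 0.031 and 0.378, so not every pair was above 0.1 and the numbers were not taken as pairing. With 4 against 5 cultures the intervals of the targets reached from 0.518-fold (*Hmox1*) to 2.71-fold (*Nqo1*, a log2 fold change of 1.44).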
